A study of Homo sapiens with 6 samples.

Results

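The genes described here carry the symbols of cytosolic ribosomal proteins and of their paralogs, and were measured in LS 174T cells with and without propionate. They were chosen by symbol: RPS or RPL, or RPLP for the stalk proteins, then a number and at most a suffix such as A, X, L or L1, with at least 60 reads summed over the 6 libraries. Of 24462 symbols in the count tables, 85 fitted the pattern and 81 had enough reads. By symbol, 31 of these were assigned to the small subunit and 50 to the large. A symbol alone does not show that the protein is part of the ribosome, as for the paralog RPL7L1. The rule uses no measured difference between the groups, though it was set with earlier results of these data known. The member with the fewest reads was RPL39L with 682, while the excluded RPL10L and RPL3L had 43 and 17. The pattern misses some ribosomal protein genes, among them RPSA, FAU, RPL36AL and GNB2L1 (the older symbol of RACK1), which are described separately.

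LS 174T is a human colorectal adenocarcinoma line that makes mucins and serves as a model of goblet cells. The 2 groups were cells kept for 4 h in 4 mM propionate (n = 3 libraries), an acid that gut bacteria make from fibre, and cells without it (control, n = 3 libraries). All cells were between passages 21 and 23. Per the labels' protocols, each library took 500 ng of total RNA into a Lexogen QuantSeq preparation, a method that reads the 3' ends of mRNAs if the kit is as named. The line is a tumour culture and no normal goblet cell was included. No label says that replicate libraries stem from separate cultures. The p-values therefore weigh differences against a spread that may be technical.

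A ribosome joins a small subunit, which reads the mRNA, to a large subunit, which forms the peptide bond and lets the chain out through a tunnel. Cells make most ribosomal proteins in equal numbers, and surplus protein is degraded. Their mRNAs are among the most abundant in dividing cells and begin with a C followed by a stretch of pyrimidines, the TOP motif. Through it mTORC1 signalling and the binding protein LARP1 set their translation and stability, so a change in output need not appear as a change in mRNA.

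Totals per library lay between 11603288 and 12746170 reads, where 3 reads correspond to 0.235 to 0.259 CPM, that is, reads scaled to a total of 1000000. All 81 genes were among the 13605 tested. All 10 colon epithelial markers were above 1 CPM. Their summed level was 5041 to 5716 CPM with propionate and 4313 to 5115 CPM in control. Fibroblast markers summed to 4.98 to 7.30 CPM with propionate and 2.88 to 6.29 CPM in control, with DCN at 0. Leukocyte markers summed to 21.7 to 24.7 CPM with propionate and 28.8 to 34.3 CPM in control, with CD3E at 0 and most reads on LYZ, which epithelia can also express. Endothelial markers were at 0 in all propionate libraries and at most 0.172 CPM in control. The part of these sums in the results was not tested.

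The TOP motif could be seen in the DNA around annotated transcription starts, and windows are printed for abundant members and for the paralog pairs that the results turn on. RefSeq's promoter table (GRCh38.p14, not the hg19 build that the submitters' processing notes name) held 65 of the 81 genes. A run of 5 or more letters, all C or T and the first a C, was searched on the transcribed strand, since the motif belongs to the transcript. It began exactly at the annotated start in 46 of these genes (70.8%), against 5.14% of all 27305 genes in the table. Within 5 bases of the start it was found in 53 (81.5%), against 25.2% of all genes. Each window has 15 bases before the start and 15 from the start on, read 5' to 3' along the gene, with the longest run that begins within 5 bases of the start in capitals. A stretch of C and T may reach further upstream, as in RPL21.
RPS6: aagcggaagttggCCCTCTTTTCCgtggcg
RPL26: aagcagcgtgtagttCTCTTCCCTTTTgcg
RPL22: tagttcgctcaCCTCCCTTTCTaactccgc
RPL22L1: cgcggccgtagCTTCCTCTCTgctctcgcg
RPS27: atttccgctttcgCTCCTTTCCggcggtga
RPS27L: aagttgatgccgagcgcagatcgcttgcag
RPL21: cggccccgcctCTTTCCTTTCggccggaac
RPL26L1: ggcggggcggcggccacaaacccgcaggca
RPL7L1: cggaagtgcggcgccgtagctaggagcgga
The window of RPS6 lies at chr9:19380222-19380251 (minus strand), that of RPL26 at chr17:8383179-8383208 (minus) and that of RPL21 at chr13:27251543-27251572 (plus). RPL22 lies at chr1:6199581-6199610 (minus) and its paralog RPL22L1 at chr3:170870181-170870210 (minus). RPS27 lies at chr1:153990747-153990776 (plus) and its paralog RPS27L at chr15:63157463-63157492 (minus). RPL26L1 lies at chr5:172958865-172958894 (plus) and RPL7L1 at chr6:42879601-42879630 (plus). RPL22L1 had the run as its parent does, while RPS27L, RPL26L1 and RPL7L1 had none of 5 letters near the start. A start annotated a few bases off would also hide a run, so a missing run says only that these letters are not at this position. The 12 genes with no such run near the start had a median log2 fold change (propionate over control) of -0.07, with 8 below 0, and the 53 with a run had -0.02, with 31 below 0.

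Ribosomal protein genes took nearly the same share of the library with and without propionate. Their reads made 11.3%, 11.4% and 11.1% of all reads in the propionate libraries and 11.5%, 11.3% and 10.99% in the control libraries. The means were 11.3 ± 0.162% with propionate and 11.3 ± 0.278% in control (SD, n = 3 each). The difference of 0.0271 percentage points was smaller than the spread between libraries of a group (two-sided exact permutation test, p = 0.9, where 20 splits of 6 libraries allow no p under 0.1). Being a share, it cannot show whether the amount per cell changed, and fewer cells cannot be told apart from less RNA per cell.

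Neither subunit's share differed beyond the spread between libraries. Small subunit genes took 5.41 ± 0.143% of reads with propionate and 5.36 ± 0.188% in control (exact permutation p = 0.6). Large subunit genes took 5.90 ± 0.0210% with propionate and 5.92 ± 0.0948% in control (exact permutation p = 0.9). The ratio of small to large subunit reads was 0.919, 0.937 and 0.894 with propionate, against 0.915, 0.916 and 0.882 in control. The groups overlapped, and although the ratio was higher with propionate in 3 of 3 same-numbered pairs, the difference did not exceed the spread (exact permutation p = 0.5).

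**Figure D1:**
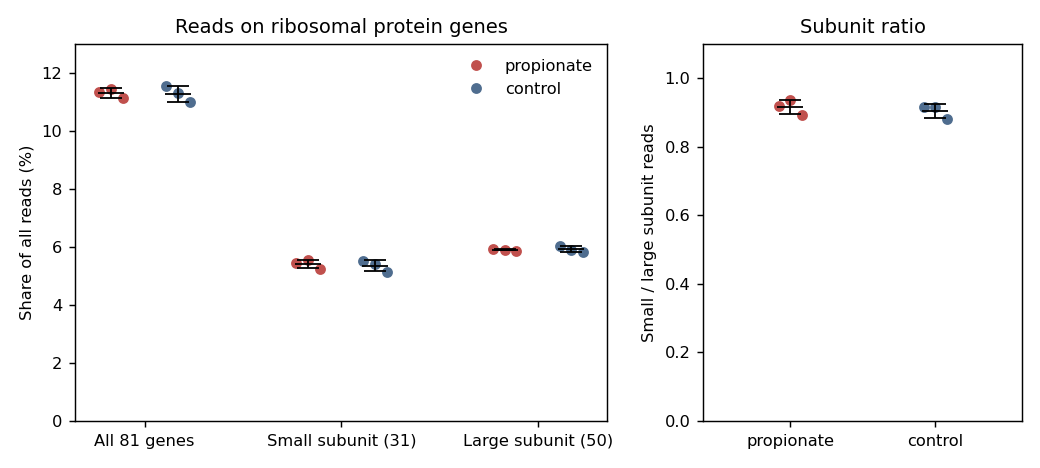
Share of all reads (percent, left) on all ribosomal protein genes and on each subunit, and the ratio of small to large subunit reads (right), per library (points) with mean and SD (bars), propionate left of control. The groups overlap in each panel: all 81 genes took 11.3 ± 0.162% of reads with propionate and 11.3 ± 0.278% in control.

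Gene by gene, 0 of the 81 rose and 3 fell with propionate: RPL22L1, RPL21 and RPS27L (edgeR quasi-likelihood test, adjusted p under 0.05 by Benjamini-Hochberg over all genes tested). That is 3.7% of the genes, against 34.2% of all genes tested, with 17.2% higher and 17.0% lower. The 2079 other genes averaging at least 100 CPM were called as often, at 34.2%. At an unadjusted p under 0.05, edgeR called 2 higher and 10 lower, against 43.6% of all genes in either direction. Without control library 3 only RPL22L1 was called, and without propionate library 3 there were 5 calls, all lower.

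The fold changes were small as well as mostly uncalled. The median log2 fold change (propionate over control) was -0.03, against -0.01 over all genes tested, with 50 genes below 0 and 31 above. The middle of the distribution, between its quartiles, ran from -0.10 to 0.03. Of the 81 genes, 76 (93.8%) lay within 0.2 of 0 on the log2 scale, against 59.7% of other genes at 100 CPM or more and 39.7% of all genes tested. None rose by more than 0.2 and 5 were lower by more, namely the 3 called genes, RPL15 and RPL4.

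Libraries of a group varied about as much for these genes as for other abundant ones, while fold changes were less spread. The SD of log2 fold changes was 0.102 among the 76 members averaging at least 100 CPM and 0.294 among other genes at that level. The median SD between libraries of a group was 0.0784 (log2 CPM) for members and 0.0921 for other genes at 100 CPM or more with propionate, and 0.0854 for members and 0.0903 for those genes in control. For 78 members the 95% interval of the log2 fold change lay inside ±0.5, and for 46 inside ±0.25.

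**Figure D2:**
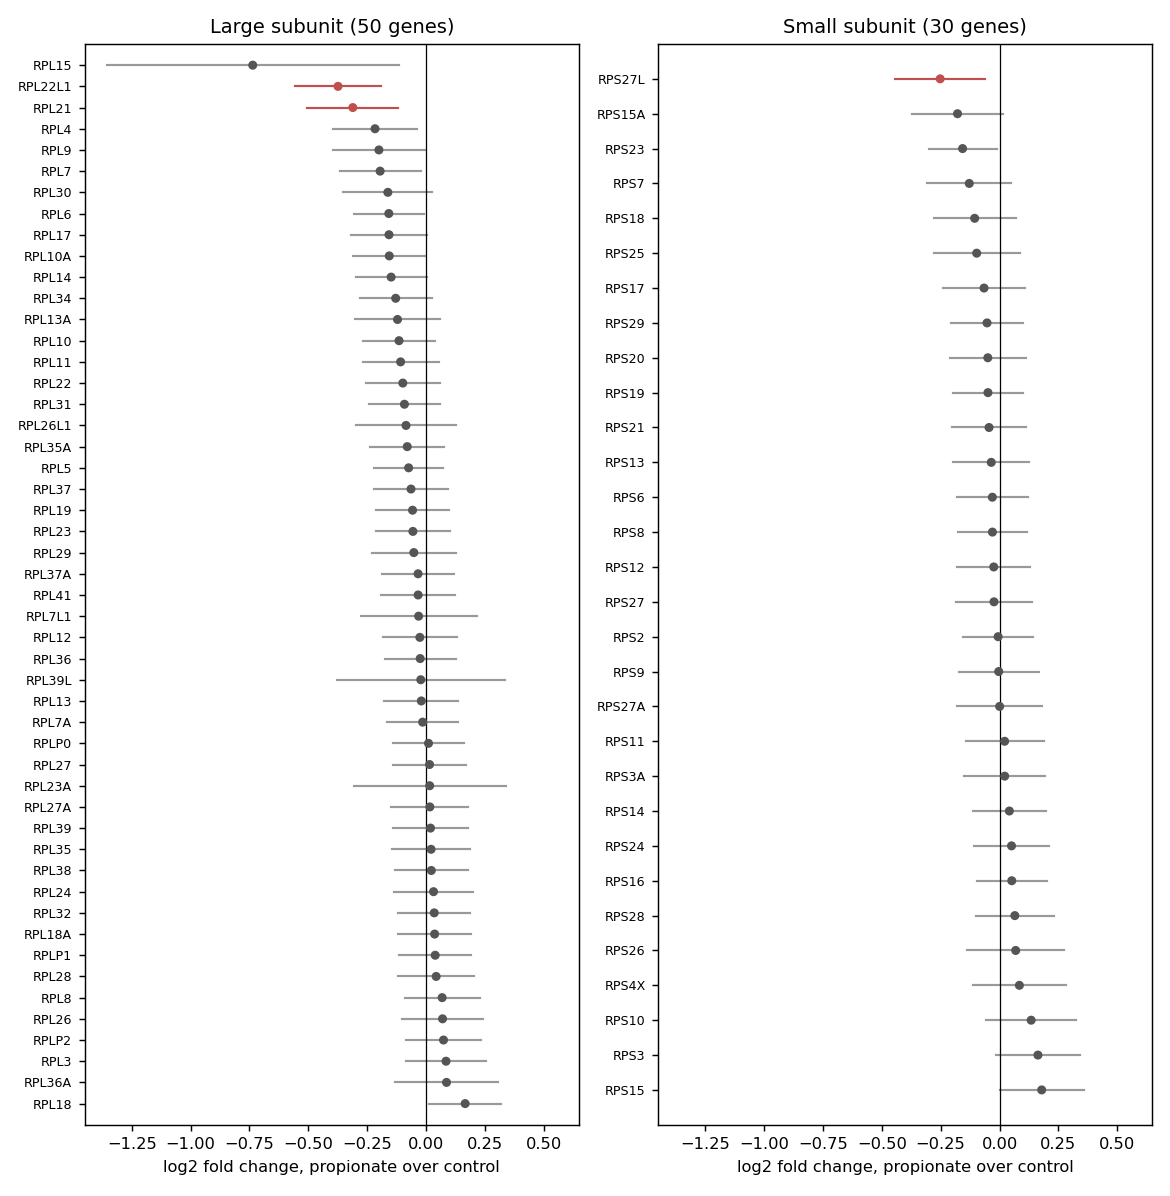
Log2 fold change, propionate over control, of the 50 large subunit genes (left) and of 30 of the 31 small subunit genes (right), with its 95% interval from edgeR. Points in red passed an adjusted p of 0.05: RPL22L1 at -0.37, RPL21 at -0.31 and RPS27L at -0.25. RPL15, at -0.74, has the widest interval and did not pass.

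**Figure D3:**
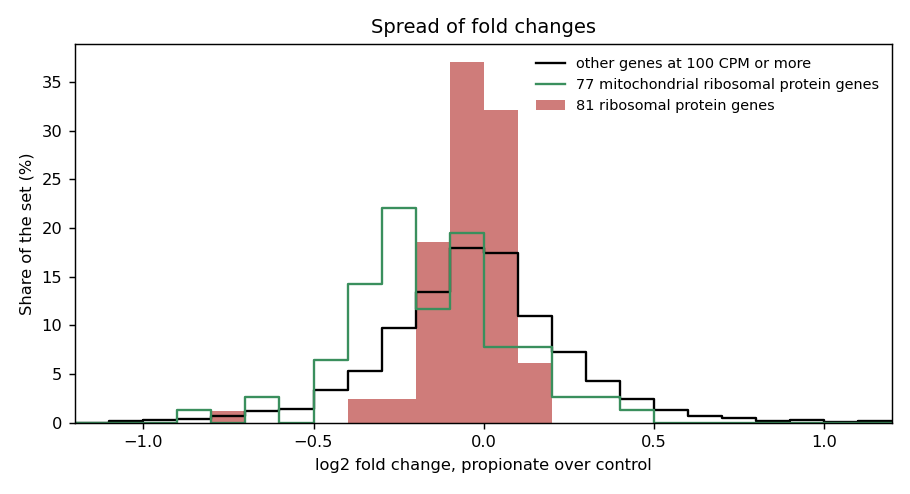
Distribution of log2 fold changes (propionate over control, bins of 0.1) as a percentage of each set: the 81 ribosomal protein genes (filled), 77 mitochondrial ribosomal protein genes (green line) and 2079 other genes averaging at least 100 CPM (black line). The filled bars are concentrated near 0, with 93.8% of genes within 0.2, and the green line is shifted to lower values, with a median of -0.16.

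RPL22L1, a paralog of RPL22 that can take its place in the large subunit, had the clearest fall. It had 630.3, 576 and 629 CPM with propionate, against 774, 704 and 899.9 CPM in control. All 3 propionate libraries lay below all 3 controls. The log2 fold change was -0.37 (SE 0.0883, edgeR adjusted p = 0.00276), a decrease of 22.8% with a 95% interval of -32.1% to -12.3%. RPL22 itself had 443, 464 and 484 CPM with propionate, against 497, 500.9 and 491 CPM in control. Its libraries did not overlap either, but the difference was small (log2 fold change -0.10, edgeR adjusted p = 0.336).

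RPS27L, a paralog of RPS27 known as a target of p53, also fell. It had 132.4, 129 and 128 CPM with propionate, against 164, 132.5 and 168 CPM in control. Control library 2 was nearly as low as the propionate libraries. The log2 fold change of -0.25 (SE 0.0915) passed narrowly (edgeR adjusted p = 0.0391), and the call was lost without any 1 of the 6 libraries other than control 2 (adjusted p = 0.0722 to 0.145) and with some other scalings (adjusted p from 0.00213 to 0.145 over all alternatives). RPS27 had 202, 201.8 and 189 CPM with propionate and 203, 201.5 and 198 CPM in control, and did not pass (log2 fold change -0.02, edgeR adjusted p = 0.847).

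The share of a pair's reads that fell on the paralog was compared in 5 pairs. RPL22L1 took 56.9 ± 1.70% of the pair's reads with propionate and 61.3 ± 3.16% in control (SD, n = 3 each). RPS27L took 39.7 ± 0.727% with propionate and 43.4 ± 3.28% in control. Both shares were lower in 3 of 3 same-numbered pairs, but in both the groups overlapped. The exact permutation p was 0.2 for each (0.5 adjusted over the 5 pairs), where 3 libraries a group allow no p under 0.1. RPL7L1 took 22.0 ± 2.54% with propionate and 20.2 ± 2.18% in control. RPL26L1 took 1.251 ± 0.256% with propionate and 1.38 ± 0.0732% in control, and RPL39L 1.03 ± 0.0987% with propionate and 1.07 ± 0.114% in control. These 3 shares overlapped between the groups as well (exact permutation p from 0.5 to 0.8). RPL26L1, RPL7L1 and RPL39L were not called themselves (log2 fold changes -0.08, -0.03 and -0.02). The shares are of reads, not of transcripts.

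**Figure D4:**
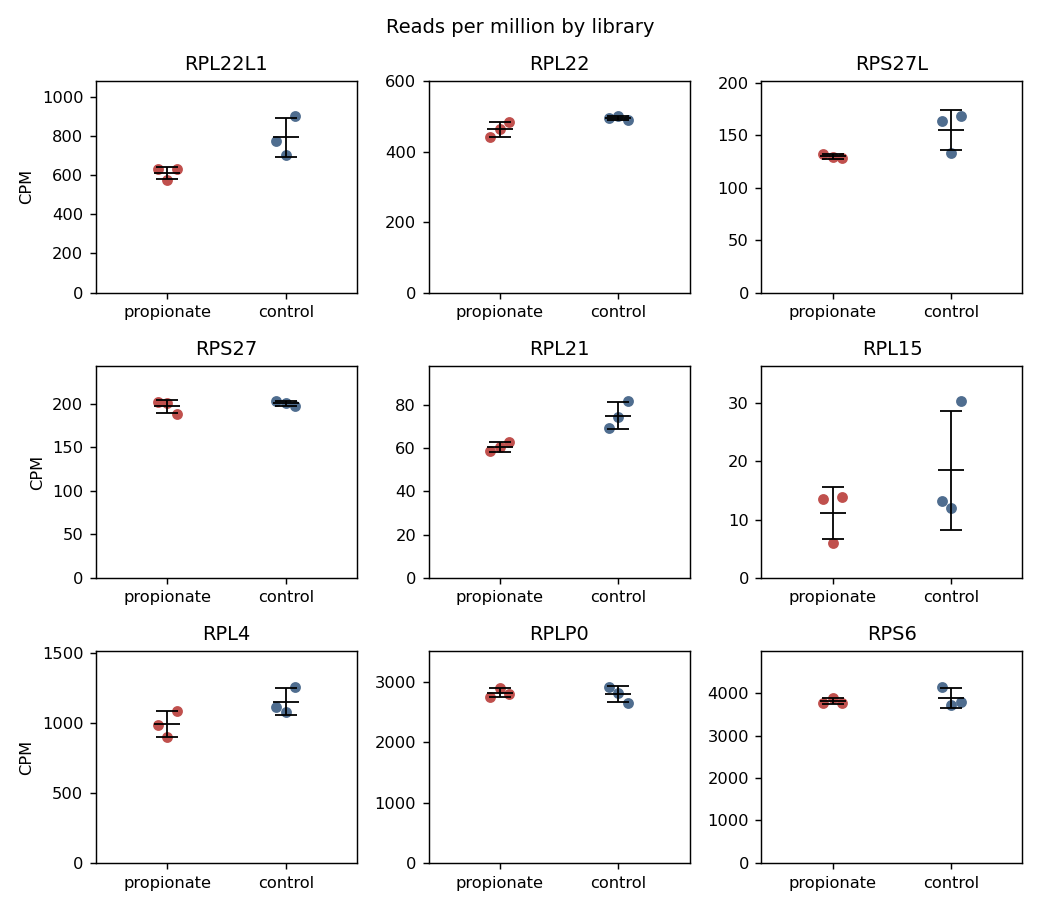
CPM by library for 9 ribosomal protein genes, propionate left of control, with mean and SD as bars and each axis from 0. RPL22L1 (611.7 ± 31.4 with propionate, 792.7 ± 99.2 in control), RPS27L and RPL21 are lower in all propionate libraries, while RPLP0 and RPS6 overlap between the groups. For RPS27L the groups nearly touch, with 132.4 CPM in propionate library 1 and 132.5 CPM in control library 2.

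RPL21, a large subunit protein, was the third gene that fell. It had 58.4, 60.2 and 62.6 CPM with propionate, against 69.2, 74.1 and 81.5 CPM in control. The groups did not overlap, and the log2 fold change was -0.31 (SE 0.0927, edgeR adjusted p = 0.0138). The call was lost without propionate library 1 (adjusted p = 0.0526) or control library 3 (adjusted p = 0.0653), and over all alternatives the adjusted p ran between 0.0007015 and 0.0653. Pseudogene symbols held 43.2% of the reads of RPL21 and its pseudogenes together. The largest, RPL21P28, was not called (log2 fold change -0.04, edgeR adjusted p = 0.774). Summed with its pseudogenes, RPL21 had 111.7 ± 1.85 CPM with propionate and 126.5 ± 4.37 CPM in control, a log2 ratio of -0.18.

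Processed pseudogenes, which are intron-less copies of ribosomal protein mRNAs, limit how reads can be assigned. The tables held 28 such symbols, and the 23 with at least 60 reads belonged to 15 of the genes. For 3 of them the pseudogene had more reads than its gene: RPL13AP5 had 64427 and RPL13AP20 11908 over the 6 libraries, against 11716 on RPL13A, and RPS26P11 had 10945, against 10632 on RPS26. The split between such copies is therefore uncertain. The 2 levels together hardly differed: RPL13A and its pseudogenes summed to 1270 ± 157 CPM with propionate and 1223 ± 121 CPM in control (log2 ratio 0.05). All pseudogenes took 0.185 ± 0.0128% of reads with propionate and 0.179 ± 0.00790% in control (exact permutation p = 0.6). Of the 23, RPL23AP32 was called higher, from few reads: 48, 35 and 14 with propionate, against 7, 13 and 3 in control (log2 fold change 1.96, edgeR adjusted p = 0.00531). Readthrough symbols can share reads too: RPL36A-HNRNPH2, chosen after its values were seen, had 1506, 1502 and 1348 reads with propionate and 1542, 1605 and 1634 in control (log2 fold change -0.22, edgeR adjusted p = 0.0409), and RPL36A itself was not called (0.09).

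RPL15, RPL4 and RPL9 had the largest differences among the genes that were not called. RPL15, a core large subunit protein, had 13.5, 6.02 and 13.9 CPM with propionate, against 13.2, 12 and 30.3 CPM in control. Its 1068 reads over the 6 libraries were few beside other large subunit genes, such as RPL14 with 92160 and RPL5 with 152143. Among the members only RPL39L had fewer. Whether reads of RPL15 were assigned elsewhere or lost was not tested, so its values may not give the level of its mRNA. The groups overlapped, with propionate library 2 the lowest and control library 3 far above the rest. The log2 fold change of -0.74 (SE 0.296, edgeR adjusted p = 0.0615) was -0.18 without control library 3. RPL4, which lines the exit tunnel, had 985, 897.5 and 1085 CPM with propionate and 1110, 1080 and 1258 CPM in control (log2 fold change -0.22, edgeR adjusted p = 0.0564). RPL9 had 109, 89.4 and 97.5 CPM with propionate and 119, 103 and 118 CPM in control (log2 fold change -0.20, edgeR adjusted p = 0.107). RPL4 was the uncalled member nearest to the threshold.

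In 15 of the 81 genes (18.5%) the 2 groups of libraries did not overlap, 14 with propionate lower and 1 with propionate higher, against 45.2% of all genes tested (22.4% higher, 22.7% lower). The following were singled out after their values were seen. RPS23, a protein of the decoding centre, had 2500, 2528 and 2573 CPM with propionate, against 2856, 2795 and 2824 CPM in control (log2 fold change -0.16, edgeR adjusted p = 0.0864). Its libraries were tightly grouped, and its lowest control library lay well above its highest propionate library. RPL18 was the gene with propionate higher, at 1939, 2073 and 1878 CPM, against 1799, 1780 and 1669 CPM in control (log2 fold change 0.17, edgeR adjusted p = 0.0886). RPS15 had the highest fold change, 0.18, with overlapping groups (edgeR adjusted p = 0.111). RPL23A, at the tunnel exit, varied most among the abundant genes, with 362, 279.6 and 234 CPM with propionate and 206, 362 and 297 CPM in control.

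The 5 genes with the most reads held 20.9% of the reads of all 81, which is an order of reads and not of transcripts. The first was RPS27A, which encodes a ribosomal protein fused to ubiquitin, with 6105, 7134 and 5621 CPM with propionate and 6559, 6575 and 5719 CPM in control (log2 fold change 0.00). The others were RPS29 (-0.05), RPL27A (0.02), RPL26 (0.07) and RPS6 (-0.03). RPS6, the subunit protein that S6 kinases phosphorylate, had 3762, 3892 and 3771 CPM with propionate and 4152, 3724 and 3791 CPM in control. In all 5 genes the groups overlapped.

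Groups of genes defined by their place in the ribosome gave no call. The stalk proteins RPLP0, RPLP1 and RPLP2, which recruit translation factors, had log2 fold changes of 0.01, 0.04 and 0.07, 0 of 3 called, where RPLP2 turned to -0.19 with the GC trend removed, with and without the replicate block. RPL5 and RPL11, which assemble with the 5S RNA and can bind MDM2, had -0.07 and -0.11, 0 of 2 called. RPL5 had 1988, 2074 and 2093 CPM with propionate, against 2177, 2194 and 2106 CPM in control, without overlap (edgeR adjusted p = 0.453). Of 8 genes whose proteins ring the tunnel exit, 0 were called, with a median of -0.02. Of 9 genes mutated in Diamond-Blackfan anaemia, an inherited failure of red cell production, 0 were called, with a median of -0.07. With the replicate numbers as a block, 1 tunnel exit gene was called lower, and 1 Diamond-Blackfan gene higher and 1 lower. Of the genes that the symbol pattern misses, RPSA had a log2 fold change of -0.09, FAU 0.03, RPL36AL -0.02 and GNB2L1 -0.05, and none of these 4 was called (edgeR adjusted p from 0.385 to 0.845).

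Over all genes above 10 CPM, libraries with the same replicate number deviated together from their group means. Among the members this held for numbers 2 and 3 (r = 0.687 and 0.698) but not for number 1 (r = -0.454). Unlike numbers correlated at -0.835 to 0.463 among the members. Propionate 2 and control 1 had 0.463, and propionate 1 and control 3 had 0.427. The block and the pair counts nevertheless take all 3 numbers as pairs, and whether number 1 is a pair for these genes was not tested. Taking the number as a block gave more calls. With the block, 5 members were called higher and 17 lower (27.2%), against 44.5% of all genes (21.9% higher, 22.6% lower). All 3 genes called without the block were among them. The largest called rise was a log2 fold change of 0.18 and the largest fall -0.70, that of RPL15. RPL15 had only 1068 reads in all, its groups overlapped, and propionate library 1 (13.5 CPM) was above control library 1 (13.2 CPM). The higher genes included RPS15, RPL18, RPS3 and RPS10, but with the block and the GC trend removed RPS15 turned to -0.07 and RPL18 to 0.00 and both lost their call. Besides those 3, the lower ones were led in size by RPL15, RPL4, RPL9, RPL7, RPS15A, RPL30 and RPL6. Of these, RPL9, RPL7 and RPL6 lost their call with the block and the GC trend removed, at -0.11, -0.09 and -0.09. In all, 2 of the 5 higher and 10 of the 17 lower genes kept their call there. In 36 genes (44.4%) the difference had the same sign in all 3 pairs, 27 lower and 9 higher with propionate, against 64.8% of all genes tested (33.1% lower, 31.7% higher).

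Fold changes increased weakly with the GC content of the transcript, among the members as among other genes. The reference transcript was the longest one annotated for each symbol, which need not be the mRNA that was read. It had 6434 bases for RPS27L, 2190 for RPL22L1 and 815 for RPL21. Across the 81 members, whose reference transcripts had 37.4% to 63.7% GC, Pearson's r was 0.312 and Spearman's rho 0.330 between GC content and log2 fold change. Across 12628 other tested genes r was 0.253. These points share the same 6 libraries and are no independent replicates. Within same-numbered pairs r among members was 0.343, 0.194 and 0.192, and between libraries of a group it was -0.128 to 0.138. The third of members lowest in GC had a median log2 fold change of -0.06 and held 2 of the 3 called genes. With each library's GC trend removed, 15 members were called lower and 0 higher, against 34.5% of all genes, 20.1% lower and 14.4% higher, and the median became -0.07, against -0.05 over all genes. The third highest in GC then had a median of -0.19. With the trend removed and the replicate block, 7 of the 81 members were called higher and 29 lower, against 18.5% of all genes higher, 26.1% lower and 44.5% in either direction. At this setting the members were thus called about as often as all genes tested, and more often lower. The part of GC content in the 3 calls was not tested beyond this: RPL22L1 and RPL21 were still called with the trend removed, and RPS27L was not (log2 fold change -0.18, adjusted p = 0.116, within a range of 0.00213 to 0.145 over all alternatives). With the trend removed and the replicate block RPS27L was called at the same size (adjusted p = 0.0222).

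**Figure D5:**
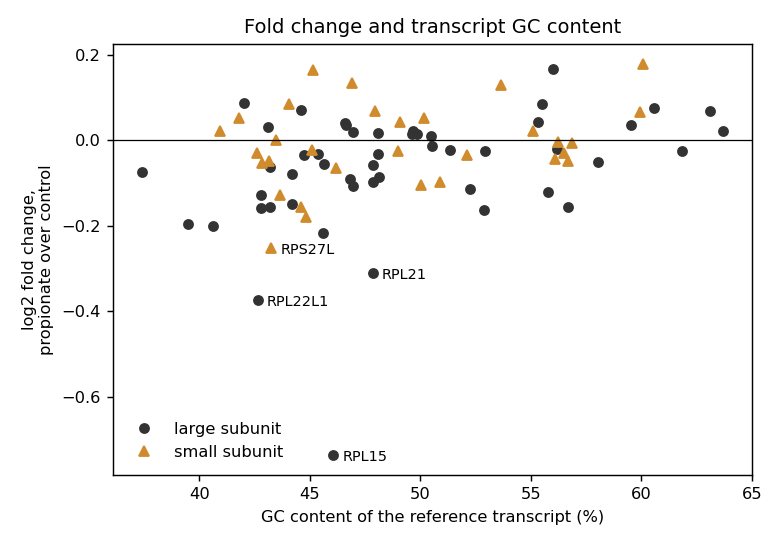
Log2 fold change (propionate over control) against the GC content of the reference transcript (percent) for 50 large subunit genes (circles) and 31 small subunit genes (triangles). The points rise weakly from left to right (r = 0.312 over 81 genes), and RPL22L1, RPL21, RPS27L and RPL15 lie below the rest.

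Genes that act with ribosomal proteins or on their mRNAs were counted by list, against the same 34.2% of all genes tested. Of 21 other tested TOP mRNAs, 0 rose and 2 fell. EEF1A1, the elongation factor that delivers aminoacyl-tRNA, averaged 1280 ± 309 CPM with propionate and 1647 ± 331 CPM in control (log2 fold change -0.36, edgeR adjusted p = 0.0481), with overlapping groups. EIF4B, a helper of the initiation helicase, averaged 138 ± 8.80 CPM with propionate and 161 ± 14.5 CPM in control (log2 fold change -0.23, edgeR adjusted p = 0.0489). Both calls were lost in 10 of 17 alternatives, among them the removal of propionate library 1 or 2 or of control library 1 or 3. The median of the 21 was -0.06, and the replicate block gave 1 higher and 4 lower.

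Chaperones, importers and assembly factors of ribosomal proteins gave 0 higher and 5 lower of 20, with a median of -0.15. LTV1, an assembly factor of the small subunit, had 72.7, 72.4 and 67.5 CPM with propionate, against 98.8, 114 and 100.2 CPM in control (log2 fold change -0.56, edgeR adjusted p = 8.16e-05). GRWD1, a chaperone of RPL3, fell by 0.52 on the log2 scale and the importer TNPO1 by 0.39. In both the groups did not overlap. PDCD2L and EFTUD1, which releases a factor that keeps the subunits apart, were the other 2. With the replicate block the list gave 1 higher and 8 lower.

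Among 24 genes listed as regulators of TOP mRNA translation and of mTORC1, 5 were higher and 6 lower with propionate, with a median of -0.07. The list also held MDM2, described above only as a protein that RPL5 and RPL11 can bind. LARP1, which binds the TOP motif, had 351, 313 and 293 CPM with propionate, against 476, 444 and 452 CPM in control (log2 fold change -0.52, edgeR adjusted p = 7.73e-05). TIA1 and CNBP, other proteins that bind TOP mRNAs, fell by 0.66 and 0.52 on the log2 scale, and TIAL1, HNRNPD and MDM2 were lower too. TSC1 and TSC2, which together restrain mTORC1, rose by 0.37 and 0.41. RPS6KA1 and RPS6KB2, kinases that phosphorylate RPS6, and PDCD4, an inhibitor of initiation that S6 kinases target, were the other 3. MTOR itself had a log2 fold change of 0.02 (edgeR adjusted p = 0.921).

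RNA polymerase I, which makes the large ribosomal RNAs, gave 3 higher and 4 lower of 20, with a median of 0.00. UBTF, which keeps ribosomal RNA genes active, had 65.1, 57.2 and 48.9 CPM with propionate, against 97.3, 98.8 and 100.6 CPM in control (log2 fold change -0.79, edgeR adjusted p = 6.5e-06). The initiation factor RRN3 fell by 0.53 and TAF1D by 0.40, and POLR1B was the fourth lower gene. The 3 that rose were CD3EAP (0.35) and 2 subunits shared with other polymerases, POLR2L (0.42) and POLR2E (0.33). Ribosomal RNA carries no poly(A) tail and its level cannot be read from these libraries.

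Mitochondrial ribosomal proteins, which are encoded in the nucleus and make the separate ribosome of that organelle, had 4 genes higher and 30 lower of 77, against 17.2% and 17.0% of all genes, with a median log2 fold change of -0.16. The difference between these and the cytosolic genes was not tested as a set. MRPL15 had 46.6, 51.3 and 41.8 CPM with propionate, against 87.1, 87.6 and 85.3 CPM in control (log2 fold change -0.90, edgeR adjusted p = 9.04e-07). MRPS30 and MRPL27 fell by 0.67 and 0.64 on the log2 scale. Among the 4 higher genes were MRPL55 (0.42), MRPS18A (0.34) and MRPL41 (0.27), and MRPL41 turned to -0.19 with the GC trend removed.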

How the data were processed

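Each library has a table of raw counts per gene symbol, as deposited by the authors. The submitters' processing notes name Bowtie2, edgeR, hg19 and GRCh37, while the sources used here do not give the counter, its strand setting or the annotation. Counts of the 286 repeated symbols were summed (24462 symbols from 25737 lines). The test was edgeR's quasi-likelihood F test (edgeR 4.0.16 in R 4.3.3) without covariates, using TMM factors. filterByExpr left 13605 genes, and p-values were adjusted over them by Benjamini-Hochberg. CPM values use the TMM factors, marker sums and shares the plain totals, and intervals are 95%. Single values per library were compared by two-sided exact permutation tests (scipy 1.17.1). Libraries of a group differed by more than sampling noise (chi-square per degree of freedom 6.01 to 8.85), and no pair held identical values. Read counts carry no molecular identifiers, so floors cover counting error only.

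Same-numbered libraries deviated together from their group means (r = 0.237, 0.392 and 0.439 over the 9284 genes that averaged more than 10 CPM, each more than the limit of 0.1), and unlike numbers correlated at -0.352 to 0.0108. Over the 80 members above that level the values for like numbers were -0.454, 0.687 and 0.698, and unlike numbers correlated at -0.835 to 0.463. Deviations from a group mean sum to 0, so positive values for like numbers make those for unlike numbers lower. The unlike values are therefore no separate evidence of pairing. The replicate numbers follow the marks that tell apart the sample titles of a group. No label states a shared day, so taking like numbers as pairs rests on these correlations.

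GC content came from the longest GENCODE release 29 transcript of each symbol (21874 symbols matched), with a spline of 4 degrees of freedom per library. The script was tested on simulated data. The members and the gene lists (stalk, 5S particle, tunnel exit, Diamond-Blackfan genes, paralogs, genes outside the pattern, other TOP mRNAs, chaperones and importers, TOP regulators, RNA polymerase I, mitochondrial ribosomal proteins) were chosen with earlier results of these data known. The genes named are the called members, the 5 with the most reads, the 3 largest uncalled differences, paralog pairs, stalk, 5S particle, RPS6, symbols next to the read limit, and up to 3 called genes per direction of each list by p. Others are named where their count is small or as said. Alternatives were other scalings, filters, tests (DESeq2 1.42.0, limma-voom from limma 3.58.1) and thresholds, the replicate block, GC correction and leaving out each library. Values of some single genes are not reported here.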

Additional observations from a re-analysis of the deposited data

How the results depend on the processing

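Of the members, only RPL22L1 was called in each of the 17 alternatives. The count called higher, 0 in the report, was 1 with library totals as scaling, 1 with a filter of 10 CPM in 3 libraries, 1 at an adjusted p under 0.1, 5 with the replicate block and 7 with the block and the GC trend removed. The count called lower, 3 in the report, was 2 with upper-quartile factors, with library totals and with the filter of 10 CPM in 3 libraries. It was 4 with limma-voom, 5 with no filter on low counts and 6 with DESeq2. At an adjusted p under 0.01 it was 1, and at 0.1 it was 8. It was 15 with the GC trend removed, 17 with the replicate block and 29 with both. Leaving out each library gave 1 to 5 called lower. The median of -0.03 became -0.0736 with the GC trend removed and -0.0735 with the block as well. The share of reads differed by -0.0994 percentage points with TMM-scaled totals, and by -0.12 to 0.157 when each library was left out. Leave-one-out ranges that cross 0 were also found for the pseudogene share (-0.000963 to 0.0113), the RPL26L1 share (-0.211 to 0.0229) and the RPL39L share (-0.0883 to 0.0252). RPLP2 and MRPL41 were at -0.19 with the GC trend removed, with and without the block, and of these RPLP2 passed only with it (edgeR adjusted p = 0.000811, over alternatives up to 0.854). The causes were not tested. With complete pairs the block cannot move a mean difference (0.0271 points for the share of reads, 0.0194 for the log2 subunit ratio). The exact permutation p over pairs was 1 for the share and 0.25 for the ratio, the smallest that 3 pairs allow, and no share or ratio passed 0.05. Of 46 named genes, 27 kept their side of the threshold in every alternative run, though the sign of small uncalled values could turn. With 3 libraries a group, no exact permutation p could be under 0.1. Unstranded counting and pseudogene copies could move reads between symbols, and levels of different genes were not compared per length.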
